A study of Mus musculus with 2 samples.

Results

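The NRF2 antioxidant genes were followed across the cell classes of the mouse fracture callus in 2 single-cell RNA libraries. The set held 10 genes, chosen by symbol from the 32285 genes of each matrix, namely Nfe2l2, Hmox1, Slc7a11, Gclc, Gclm, Gsr, Srxn1, Prdx1, Txnrd1 and Nqo1, and all 10 were found in both libraries. They were picked with levels from these libraries in view, so their levels are given as descriptions and no test was made. Calluses came from wild-type C57BL/6J mice, 12-week-old males per the methods of the study, whose femur had been fractured, and the design covered 10 days (n = 5 mice) and 20 days (n = 5 mice) after fracture. The libraries, MGJ and MGJ2, carried neither a day nor a mouse in their labels, and their values are set next to each other without an order in time, with all mice of a library as 1 sample. Cells were captured with a droplet 3′ chemistry that counts each captured RNA molecule once, as a unique molecular identifier (UMI). After removal of barcodes with fewer than 200 genes, more than 20% mitochondrial UMIs or a doublet call, 13000 cells were kept in MGJ and 7583 in MGJ2. Levels are UMIs of a gene per 1000000 UMIs of a class (CPM), and every interval is an exact 95% interval that covers counting error only, since no library had a replicate.

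Cell classes were named from marker genes and carry the ending "-like". Chondrocyte-like cells numbered 2528 in MGJ and 137 in MGJ2, with Col2a1 at 55140 and 44360 CPM. Macrophage-like cells, set apart by the complement gene C1qa (2220 CPM against 33.7 in monocyte-like cells of MGJ), numbered 902 and 21. Monocyte-like cells numbered 1279 and 1455. Most of them lay in different clusters in the 2 libraries, cluster 6 in MGJ (led by Arg1 and Cxcl3) and cluster 3 in MGJ2 (led by Cd83), and Hmox1 was itself among the leading genes of cluster 6. In MGJ, 4623 cells stayed unnamed, of which 3787 lay in 2 neutrophil-list clusters of low UMI count (median 1786). Of the barcodes tested, 3.42% in MGJ and 2.86% in MGJ2 were called doublets, below the 10.8% and 6.24% that the loading would give, so some doublets may remain. The libraries shared 19 barcodes.

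NRF2, the protein of Nfe2l2, is a transcription factor that is kept scarce by KEAP1, which hands it to a ubiquitin ligase. Oxidants and electrophiles that react with KEAP1 let NRF2 gather in the nucleus, where it pairs with a small MAF protein and binds the antioxidant response element, while BACH1 competes for the same element, above all at Hmox1. Target genes make glutathione, repair oxidised thiols, break down haem and reduce quinones. NRF2 is mainly controlled as a protein, so the level of its transcript is not a measure of its activity.

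The core letters of the antioxidant response element, TGACNNNGC, were looked for on both strands in RefSeq promoters (GRCm38.p6, 250 bases before to 50 bases after each transcription start). Of the 10 genes, 7 had promoters in the table, 9 promoters in all, and Hmox1, Gclc and Gsr had none. The letters were present in 5 of the 9 promoters and in 4071 of all 32851 promoters (12.4%). Each match is shown with 10 bases on either side, 5′ to 3′ along the gene, with the 9 matching bases in capitals, to show how near each lies to the start of a member.
Nfe2l2, chr2:75704885-75704913, minus strand, positions -240 to -232: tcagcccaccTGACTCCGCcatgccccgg
Gclm, chr3:122245413-122245441, plus strand, positions -134 to -126: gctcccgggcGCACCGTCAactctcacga
Prdx1, chr4:116685456-116685484, plus strand, positions -133 to -125: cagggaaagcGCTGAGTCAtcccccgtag
Txnrd1, chr10:82859104-82859132, plus strand, positions -92 to -84: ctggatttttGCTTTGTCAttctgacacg
Srxn1, chr2:152105542-152105570, plus strand, positions 29 to 37: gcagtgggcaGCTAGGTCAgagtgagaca
The match of Nfe2l2 reads along the gene and the other 4 read on the opposite strand. That of Prdx1 overlaps the AP-1 letters TGANTCA, and that of Srxn1 lies past the start, within the transcribed part. For Txnrd1, 1 of 3 promoters held the letters, and those of Nqo1 and Slc7a11 did not hold them within these 300 bases. Among 69 other genes of the pathway, 58 had a promoter in the table and 16 of these held the letters (27.6%). Of all 27025 genes with a promoter, 3781 held them (14.0%), and so did 5 of the 7 members. A match is a description of the sequence and says nothing of binding in these cells.

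Levels were compared between classes with at least 50 cells, of which there were 17 in MGJ and 14 in MGJ2. Unnamed cells were not ranked. In MGJ these included the 3787 cells of the neutrophil-list clusters of low UMI count, against 820 cells named mature neutrophil-like. The order of classes in MGJ is thus one without most cells of the mature neutrophil list. In MGJ, monocyte-like cells had the highest level of 6 of the 10 genes (Hmox1, Prdx1, Txnrd1, Srxn1, Gclc and Nfe2l2). In MGJ2, dendritic-like cells led for 4 (Srxn1, Txnrd1, Prdx1 and Nqo1) and monocyte-like cells for 2 (Hmox1 and Nfe2l2). The class with the highest level was the same in both libraries for Hmox1, Slc7a11, Gsr and Nfe2l2, and of these 4 genes it was Slc7a11 that kept its class under all 7 alternatives in which classes were ranked. Mature neutrophil-like cells led for Nfe2l2 in MGJ with the most abundant genes out of the denominator or with at least 500 genes. Hmox1 was led by a plasma-cell-list class in MGJ at clustering resolution 2 and by macrophage-like cells in MGJ2 at resolution 0.5. With clusters made at a higher resolution, or from barcodes with at least 500 genes, 6 of the 10 leading classes of MGJ stayed. At resolution 0.5, macrophage-like cells led for Prdx1 in both libraries and for Txnrd1 in MGJ, where 2104 cells carried that name and 159 the monocyte name. By the share of cells with a UMI after thinning every cell to 2000 UMIs, some leading classes differed from those by level. They were B-like cells for Nqo1 in MGJ and endothelial-like cells for Hmox1 and Prdx1 in MGJ2. In the 1 alternative run for this share, the leading class stayed for 9 genes in MGJ and 7 in MGJ2.

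**Figure D1:**
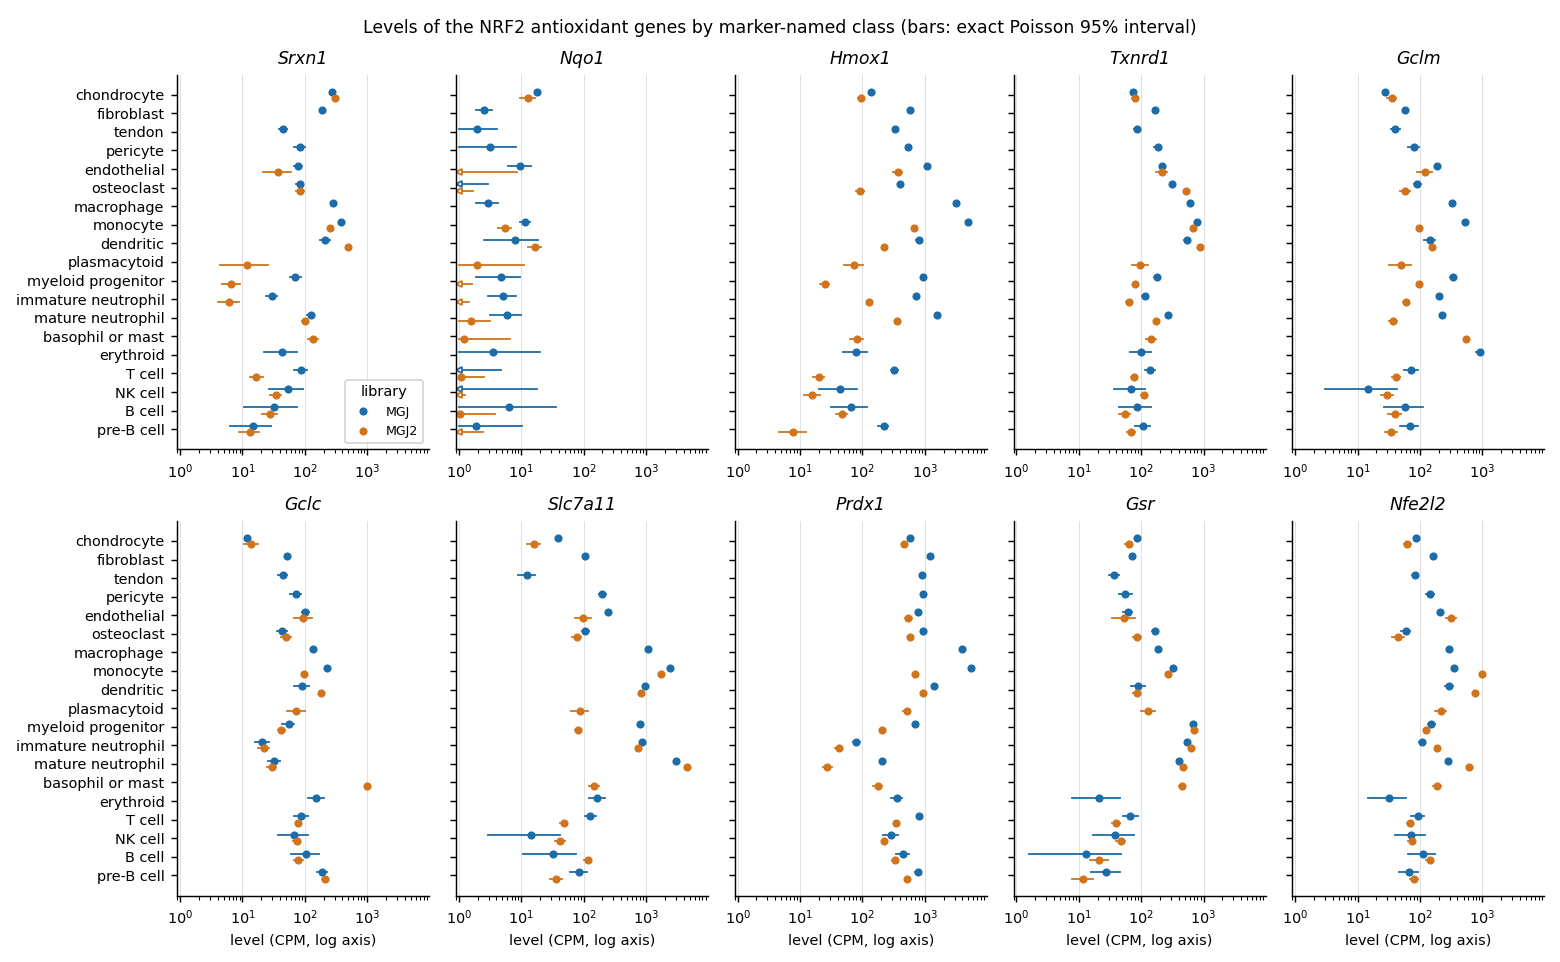
Level of each of the 10 genes (CPM, log axis) in each class of at least 50 cells, with MGJ in blue and MGJ2 in orange, bars for the exact Poisson 95% interval and open triangles for levels under 1 CPM. Hmox1 and Prdx1 peak in the monocyte-like and macrophage-like cells of MGJ, and Slc7a11 in mature neutrophil-like and monocyte-like cells of both libraries. For Srxn1 and the scarce Nqo1, chondrocyte-like cells stand among the leading classes.

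Nfe2l2 (chr2:75675513-75704641, minus strand, GRCm38) was highest in monocyte-like cells, at 349 CPM (interval 337 to 362) in MGJ and 985 CPM (968 to 1001) in MGJ2. Dendritic-like cells came next, with 294 CPM in MGJ and 773 CPM in MGJ2. In MGJ, dendritic-like, macrophage-like (288 CPM) and mature neutrophil-like cells (279 CPM) were neighbours in the order that counting error did not separate. Chondrocyte-like cells had 86.1 CPM in MGJ and 62.9 CPM in MGJ2, near the low end of the classes, whose medians were 110 and 165 CPM.

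Hmox1, haem oxygenase 1, which opens the haem ring and frees iron, biliverdin and carbon monoxide, was highest in monocyte-like cells of both libraries (chr8:75093621-75100589, plus strand). Its level in MGJ was 4923 CPM (4876 to 4970) in monocyte-like, 3205 CPM (3168 to 3242) in macrophage-like, 1575 CPM in mature neutrophil-like and 1094 CPM in endothelial-like cells. Each of these neighbours in the order was separated from the next beyond counting error. In MGJ2 the order began with 684 CPM (670 to 698) in monocyte-like cells, followed by 369 CPM in endothelial-like and 363 CPM in mature neutrophil-like cells, and the latter pair was not separated. The lowest levels were 43.4 CPM in NK-like cells of MGJ and 7.84 CPM in pre-B-like cells of MGJ2. Monocyte-like cells held 35.3% of all Hmox1 UMIs of MGJ with 6.79% of all UMIs, and macrophage-like cells held 24.1% with 7.1%. In MGJ2, monocyte-like cells held 58.0% of Hmox1 UMIs with 23.3% of all UMIs.

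Within MGJ, the 2 monocyte-like clusters lay close to each other in Hmox1. Cluster 6 had 4946 CPM (1196 cells) and cluster 3 had 4499 CPM (83 cells) in that library. In MGJ2, the same clusters had 1245 CPM (33 cells) and 670 CPM (1422 cells). Prdx1 ran in parallel, with 5556 and 4923 CPM in clusters 6 and 3 of MGJ and 1527 and 672 CPM in those of MGJ2.

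Slc7a11, the transporter that imports cystine for glutathione synthesis, had its highest level in mature neutrophil-like cells of both libraries (chr3:49892526-50443614, minus strand). Its level there was 3080 CPM (3010 to 3151) in MGJ and 4577 CPM (4518 to 4636) in MGJ2, and immature neutrophil-like cells had 858 and 754 CPM. Monocyte-like cells followed with 2455 and 1771 CPM. The unnamed low-UMI clusters of MGJ, which resemble neutrophils by their list, had 4049 CPM together, and all unnamed cells held 42.0% of the Slc7a11 UMIs of the library. After thinning every cell to 2000 UMIs, 97.1% of mature neutrophil-like cells of MGJ (512 cells, 308 shallower cells left out) and 97.3% of those of MGJ2 (1334 cells, 565 left out) had an Slc7a11 UMI. Before thinning the shares were 94.1% and 97.9%. In pre-B-like cells, the thinned shares were 5.63% and 2.93%, and in chondrocyte-like cells 6.54% and 2.94%.

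Gclc and Gclm, the catalytic and the modifier subunit of glutamate-cysteine ligase, which starts glutathione synthesis, were not highest in the same cells. Gclc (chr9:77754535-77794485, plus strand) was led in MGJ by monocyte-like cells at 227 CPM (217 to 238), which counting error did not separate from pre-B-like cells at 189 CPM (154 to 229). In MGJ2, basophil- or mast-like cells had 1002 CPM of Gclc (935 to 1072), 4.84-fold the level of pre-B-like cells, which came next. Gclm (chr3:122245557-122270732, plus strand) was highest in MGJ in erythroid-like cells, at 903 CPM (795 to 1021), 1.7-fold above monocyte-like cells at 532 CPM. In MGJ2, where only 4 erythroid-like cells were found, basophil- or mast-like cells led for Gclm as well, at 555 CPM (505 to 607). Chondrocyte-like cells had the lowest Gclc level of all classes in both libraries, 11.8 and 13.9 CPM, with Gclm at 27.9 and 35.4 CPM.

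Gsr, glutathione reductase, which returns oxidised glutathione to its reduced form with NADPH, was ordered along the granulocyte classes in both libraries (chr8:33652523-33698163, plus strand). Its level was 670 CPM in myeloid progenitor-like cells of MGJ, 537 CPM in immature and 402 CPM in mature neutrophil-like cells. In MGJ2 the corresponding levels were 710, 627 and 469 CPM. Each step of this order was larger than counting error in both libraries. Without mitochondrial and the 20 most abundant genes in the denominator, immature neutrophil-like cells led for Gsr in both libraries, as they did in MGJ2 with doublet calls kept. Prdx1 had its lowest levels in these cells, 80.4 CPM in immature neutrophil-like cells of MGJ and 27.4 CPM in mature neutrophil-like cells of MGJ2.

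Prdx1, a peroxiredoxin that reduces hydrogen peroxide through a reactive cysteine, was highest in MGJ in monocyte-like cells at 5524 CPM (5474 to 5574) and macrophage-like cells at 3901 CPM (3860 to 3942) (chr4:116685544-116700822, plus strand). The next class, dendritic-like cells, had 1382 CPM. In MGJ2 the spread among classes was narrower at the top, with 936 CPM in dendritic-like, 693 CPM in monocyte-like and 586 CPM in osteoclast-like cells. Chondrocyte-like cells had 578 and 460 CPM.

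Txnrd1, thioredoxin reductase 1, which keeps thioredoxin reduced and so feeds the peroxiredoxins, was led by monocyte-like cells in MGJ at 798 CPM (779 to 817) and by dendritic-like cells in MGJ2 at 883 CPM (853 to 913) (chr10:82833951-82897712, plus strand). Osteoclast-like cells had 316 and 521 CPM, and chondrocyte-like cells 73.4 and 78.7 CPM.

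Srxn1, sulfiredoxin, which repairs overoxidised peroxiredoxins, was with the scarce Nqo1 a member for which chondrocyte-like cells stood among the leading classes (chr2:152105516-152111376, plus strand). In MGJ it had 375 CPM (362 to 388) in monocyte-like, 281 CPM (270 to 292) in macrophage-like and 271 CPM (266 to 275) in chondrocyte-like cells, and the latter pair was not separated. In MGJ2, dendritic-like cells had 499 CPM (477 to 522), chondrocyte-like cells 304 CPM (287 to 322) and monocyte-like cells 252 CPM (243 to 260). Owing to their number and depth, chondrocyte-like cells held 51.6% of all Srxn1 UMIs of MGJ, with 42.3% of all UMIs. After thinning to 2000 UMIs, 29.9% of chondrocyte-like cells of MGJ (interval 28.1% to 31.8%) and 30.9% of those of MGJ2 (23.2% to 39.4%) had an Srxn1 UMI, against 72.0% and 70.8% before thinning. The thinned share in pre-B-like cells was 1.41% (0.0357% to 7.6%) in MGJ and 1.1% (0.227% to 3.18%) in MGJ2, with 5.49% and 4.69% before thinning. Median UMI counts before thinning were 20972.5 and 28392 in chondrocyte-like cells and 4706 and 4651 in pre-B-like cells.

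Nqo1, a quinone reductase that is often used to read out NRF2 activity, was scarce in all classes (chr8:107388225-107403206, minus strand). Its highest level in MGJ was 18.0 CPM (16.9 to 19.2) in chondrocyte-like cells, which held 68.3% of the 1410 Nqo1 UMIs of that library, and monocyte-like cells came next at 11.5 CPM. In MGJ2, dendritic-like cells had 16.4 CPM (12.6 to 20.98) and chondrocyte-like cells 12.9 CPM (9.62 to 16.9), which was not separated. Of 16 neighbouring pairs of classes in MGJ, 15 were not separated by counting error.

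The levels above are sums, and single cells spread widely around them. Among monocyte-like cells of MGJ with at least 5000 UMIs (960 cells), Hmox1 ran from 437 CPM at the 10th percentile over a median of 4199 CPM to 10580 CPM at the 90th. In MGJ2 (1390 cells), the median monocyte-like cell had 300.5 CPM of Hmox1 and the 90th percentile was 1783 CPM. The 25th percentile of MGJ, 1643 CPM, lay above the 75th percentile of MGJ2, 848 CPM. In chondrocyte-like cells with low Col10a1 of MGJ (1623 cells), Srxn1 had a median of 184 CPM and a 90th percentile of 971 CPM, and the 10% of cells with the most held 42.9% of the Srxn1 UMIs. Slc7a11 in monocyte-like cells of MGJ ran from 749.6 to 4562 CPM between the 10th and the 90th percentile.

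**Figure D2:**
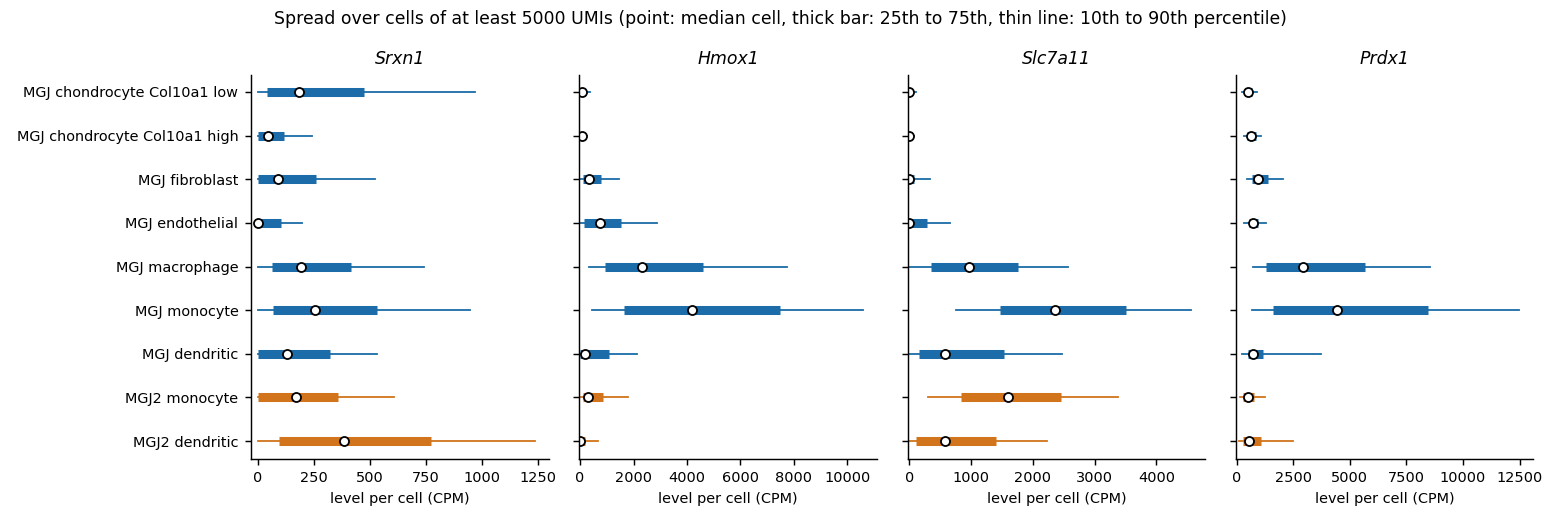
Level per cell (CPM, linear axis, its range differing between panels) of Srxn1, Hmox1, Slc7a11 and Prdx1 in cells with at least 5000 UMIs, with the median cell as a white point, the 25th to 75th percentile as a thick bar and the 10th to 90th as a thin line, MGJ in blue and MGJ2 in orange. The median monocyte-like cell of MGJ had 4199 CPM of Hmox1 against 300.5 CPM in MGJ2, whereas Srxn1 in chondrocyte-like cells of low Col10a1 spread over a range like that of the myeloid classes.

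Members were correlated from cell to cell in monocyte-like cells of MGJ. Over 141 such cells of at least 10000 UMIs, thinned to 10000, the median correlation over 45 gene pairs was 0.334, 36 pairs were above 0.2, and the closest pair was Gclm with Prdx1 (Pearson r = 0.729), followed by Hmox1 with Prdx1 (0.728) and Hmox1 with Gclm (0.718). In macrophage-like cells of MGJ (381 cells), the median was 0.205 and the closest pair was Hmox1 with Gclm (0.578). In monocyte-like cells of MGJ2 (489 cells), the median was 0.139 and the closest pair Gclm with Prdx1 (0.346). In chondrocyte-like cells the medians were 0.033 (2229 cells, MGJ) and 0.07 (123 cells, MGJ2), and the closest pairs were Srxn1 with Txnrd1 in MGJ (0.255) and Hmox1 with Txnrd1 in MGJ2 (0.27, and 0.212 in MGJ). In counts this sparse, weak values such as these, and the medians in macrophage-like cells of MGJ and monocyte-like cells of MGJ2, are not read as a relation. These values are descriptions over cells of 1 library, which share their depth and their free RNA.

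Chondrocyte-like cells were next set against all other cells of their library, in which the median gene had a log2 ratio of -0.19 in MGJ and -0.35 in MGJ2. The other cells included the unnamed ones. Among these were sub-clusters s4, s6 and s9, clustered as chondrocytes but set aside for leading genes of other classes. They held 233, 172 and 35 cells in MGJ and 12, 2 and 8 in MGJ2. Unnamed cells of MGJ had 16670 CPM of Col2a1, and their part in the ratios was not tested. In MGJ, 8 of the 10 genes were at least 1.5-fold lower in chondrocyte-like cells, where 36.1% of all 14654 genes counted were that much lower, and 1 gene, Nqo1, was at least 1.5-fold higher, where 21.4% of all genes were. In MGJ2, 7 genes were lower, against 43.3% of 13065 genes, and 2 were higher, Srxn1 and Nqo1, against 26.2%. The median log2 ratio of the 10 genes was -1.88 in MGJ and -1.84 in MGJ2, thus further down than the median gene. Slc7a11 had the lowest ratio in both libraries, 0.0356 (0.0341 to 0.0372) and 0.0144 (0.0111 to 0.0184). Hmox1 had a ratio of 0.09 in MGJ and 0.331 in MGJ2. Nqo1 was 2.94-fold higher (2.63 to 3.3) in MGJ and 3.76-fold higher (2.71 to 5.14) in MGJ2, and Srxn1 was 1.46-fold higher (1.42 to 1.49) and 2.33-fold higher (2.19 to 2.48). Prdx1 was 0.325-fold in MGJ and 1.03-fold (0.986 to 1.09) in MGJ2.

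Levels in chondrocyte-like cells can include free RNA of other cells, so they were set beside those of marker genes. Myeloid markers reached chondrocyte-like cells of MGJ at 0.189% (Lyz2), 0.0935% (S100a8) and 0.0692% (C1qa) of their level in the class where each is highest, and Cd14, another myeloid gene, at 1.35%. Hmox1 stood at 2.81% of its level in monocyte-like cells and Slc7a11 at 1.28% of its level in mature neutrophil-like cells. In pre-B-like cells of MGJ, the corresponding values were 4.43% for Hmox1, 2.7% for Slc7a11 and 1.78% for Lyz2, all above those of chondrocyte-like cells, whereas NK-like cells had 0.882% for Hmox1 and 0.47% for Slc7a11, below them. After thinning, 21% of chondrocyte-like and 8.45% of pre-B-like cells of MGJ had an Hmox1 UMI, an order opposite to that of the levels, so no order was read from the share. In MGJ2, chondrocyte-like cells stood at 0.138% for Lyz2, 13.9% for Hmox1 and 0.346% for Slc7a11, and pre-B-like cells at 1.15% for Hmox1. How much of the Hmox1 and Slc7a11 of chondrocyte-like cells is free RNA was not tested.

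Chondrocyte-like cells were divided by Col10a1, the collagen of hypertrophic cartilage, into cells with under 1000 CPM (low, 1695 cells in MGJ and 61 in MGJ2), 1000 to 10000 CPM (moderate, 336 and 25) and 10000 CPM or more (high, 497 and 51). These are ranges of 1 gene, not cell types. In MGJ, 123 cells lay within 1.5-fold of the lower limit and 153 of the upper. The cells nearest to the lower limit had 998 and 1006 CPM in MGJ, and 971 and 1017 CPM in MGJ2. Median UMI counts were 20438, 23813 and 21141 in MGJ and 28233, 26491 and 29186 in MGJ2. The summed osteoblast list differed between these ranges, with 6446, 9070 and 13430 CPM in MGJ and 20540, 17840 and 13710 CPM in MGJ2 from low to high. In the median cell it was 3570, 4378 and 10300 CPM in MGJ and 4762, 13260 and 5451 CPM in MGJ2, so the fall of the sum in MGJ2 was not that of the median cell. All 10 genes of the list were detected in the low and the high range of both libraries. The macrophage list stayed between 18.5 and 21.5 CPM in MGJ and between 14.0 and 25.8 CPM in MGJ2. The monocyte list had 12630, 15360 and 13540 CPM in MGJ and 9267, 9677 and 13520 CPM in MGJ2, where its median cell had 6136, 6970 and 5992 CPM. That list holds the matrix genes Fn1 and Vcan, so its sum was not read as monocyte RNA. Lyz2 had 32.7 CPM in low and 37.0 CPM in high cells of MGJ, against 9231 CPM in monocyte-like cells. In MGJ2 it had 13.8 and 23.8 CPM, against 13130 CPM. The chondrocyte list had 104100, 124300 and 96820 CPM in MGJ and 98550, 105100 and 60370 CPM in MGJ2. The part of these list levels in the ratios below was not tested.

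The summed level of Srxn1 was lower in moderate and high than in low Col10a1 cells of both libraries, but the median cell was lower only in MGJ. In MGJ its level was 356 CPM in low, 132 CPM in moderate and 91.6 CPM in high cells, a high-to-low ratio of 0.258 (0.241 to 0.275). In MGJ2 the levels were 426, 191 and 231 CPM, a ratio of 0.541 (0.477 to 0.614). In the finer ranges of MGJ, Srxn1 went from 400.3 CPM in cells under 100 CPM of Col10a1 to 308, 169, 97.8, 94.96 and 86.5 CPM in those above. In MGJ2 the same ranges had 508.5, 243, 124.5, 224, 256 and 211 CPM, with no steady fall, and 3 of them held under 20 cells (16, 8 and 17). The ratio stayed between 0.176 and 0.352 in MGJ and between 0.472 and 0.562 in MGJ2 in all alternatives run. In MGJ2 the sum rested on few cells: of the low cells with at least 5000 UMIs (58 cells), the 10% with the most held 55.3% of the Srxn1 UMIs, and the median cell had 64.2 CPM, against 155 CPM in moderate and 83.1 CPM in high cells. The share of these cells with an Srxn1 UMI was 67.2%, 91.3% and 71.4% from low to high. In MGJ the median cell had 184 CPM in low, 61.2 CPM in moderate and 43.8 CPM in high cells. Within the sub-clusters of MGJ described below, the differences between ranges were smaller.

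The other genes moved less in MGJ. Between high and low cells, 1 of the 10 genes (Srxn1) was at least 1.5-fold lower, where 21.1% of 11962 genes were, and none was that much higher, where 17.0% of genes were. Hmox1 had 113 CPM in high and 150 CPM in low cells (ratio 0.752, 0.706 to 0.802) and Txnrd1 61.9 and 82.5 CPM (0.75, 0.688 to 0.817). Gclm stood at 34.4 against 26.3 CPM (1.31, 1.15 to 1.48) and Prdx1 at 667 against 553 CPM (1.21, 1.17 to 1.24). With doublet calls kept, the ratio of Gclm was 0.757 and that of Prdx1 0.998, on the other side of 1. Cells were clustered and named anew in that setting, which left 52 high and 1442 low cells, against 497 and 1695. Between moderate and low cells of MGJ, Srxn1 (0.371) and Txnrd1 (0.592, 0.531 to 0.658) were at least 1.5-fold lower, where 15% of 11756 genes were, and none of the 10 was higher, where 8.12% were.

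In MGJ2, Hmox1 and Txnrd1 lay on the other side of 1. Between high and low cells, 3 of the 8 genes with at least 50 UMIs were at least 1.5-fold higher, where 15.6% of 5881 genes were, and 1 (Srxn1) was lower, where 19.8% were. Hmox1 had 132 CPM in high and 52.8 CPM in low cells (ratio 2.51, 1.95 to 3.25), Txnrd1 109 and 50.4 CPM (2.16, 1.65 to 2.83) and Gclm 48.8 and 25.8 CPM (1.89, 1.29 to 2.81). These rest on 51 high and 61 low cells, and the low cells held 88 Hmox1 and 84 Txnrd1 UMIs. The sum of Hmox1 rested on few cells. Of the high cells with at least 5000 UMIs (49 cells), the 10% with the most held 62.7% of the Hmox1 UMIs, and the median cell had 46.5 CPM against 22.9 CPM in low cells. Cells with 10000 to 30000 CPM of Col10a1 had 66.0 CPM of Hmox1, close to the 65.3 CPM of cells under 100 CPM, and the 30 cells above 30000 CPM had 183 CPM. At resolution 0.5 the ratio was 3.86. The median cell had 76.0 CPM of Txnrd1 in high and 28.8 CPM in low cells. Nqo1, with 7 and 31 UMIs, and Gclc, with 15 and 24, were under the 50 UMIs required of the counts. Between moderate and low cells of MGJ2, Hmox1 (2.04, 1.49 to 2.8) and Txnrd1 (1.52, 1.06 to 2.15) were at least 1.5-fold higher among 7 genes counted, against 12.7% of 4887 genes, and Srxn1 (0.449) was lower, against 12.1%. The ratio of Txnrd1 was 0.781 with limits of 500 and 5000 CPM, and that of Hmox1 was 3.14 at resolution 0.5. That the same contrast differed between the libraries was not tested.

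**Figure D3:**
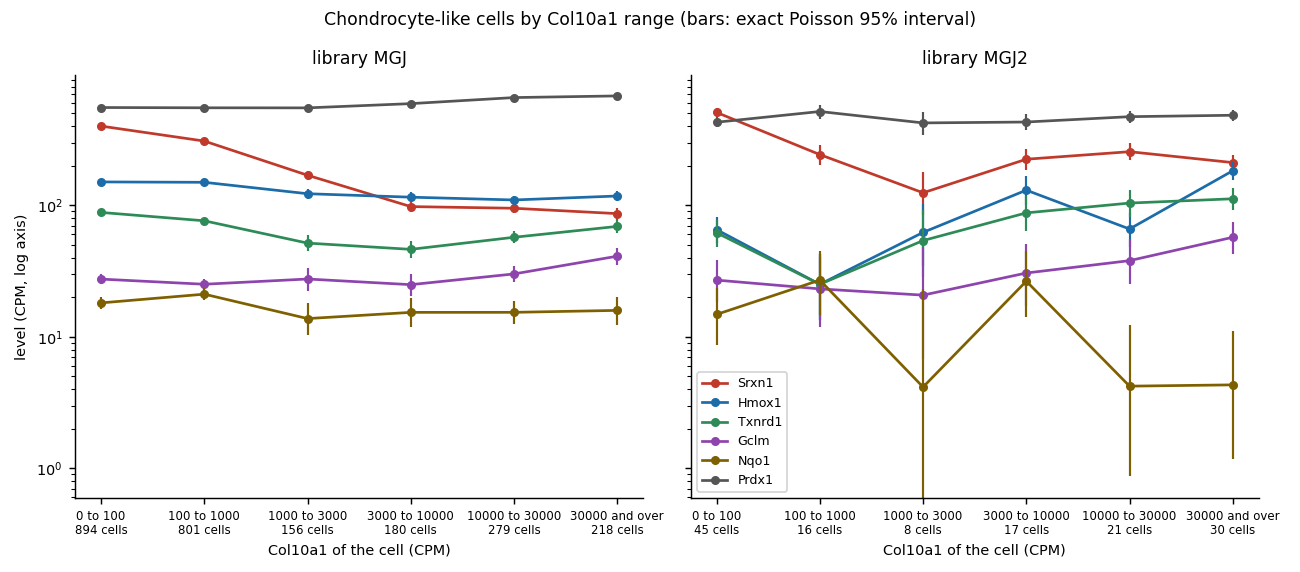
Level (CPM, log axis) of 6 of the genes in chondrocyte-like cells by the Col10a1 level of the cell, MGJ on the left and MGJ2 on the right, with bars for the exact Poisson 95% interval and cell numbers under each range. Srxn1 falls from 400.3 to 86.5 CPM across MGJ, whereas Prdx1 stays between 551 and 679 CPM there, and the ranges of MGJ2 hold between 8 and 45 cells each.

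**Figure D4:**
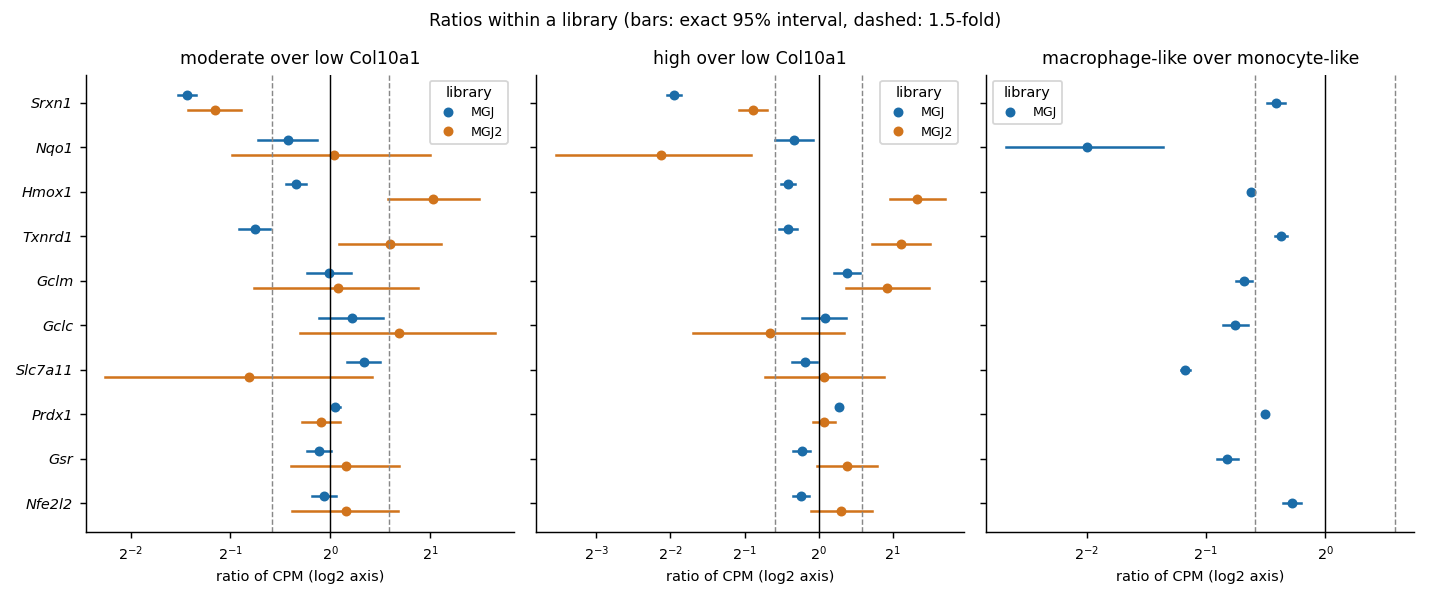
Ratio of CPM (log2 axis) of each gene within a library, for moderate over low and high over low Col10a1 and for macrophage-like over monocyte-like cells, with bars for the exact 95% interval and dashed lines at 1.5-fold. Srxn1 lies left of 1 in both libraries in the first 2 panels, Hmox1 and Txnrd1 lie on opposite sides in MGJ and MGJ2, and all 10 genes lie left of 1 in the last panel.

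Among cells of low Col10a1, Srxn1 spread over a wide range of levels by sub-cluster. Sub-clusters were made from variable genes without the 10 members. In MGJ, sub-cluster s0 (675 low cells, led by Penk and Tfpi2, with Srxn1 itself among its leading genes) had 585 CPM (573 to 599) of Srxn1, and the cycling sub-cluster s7 (116 cells, led by Ube2c and Top2a) had 355 CPM. Sub-cluster s2 (454 cells, led by Nos2 and with Cxcl10 and Ccl2) had 240.5 CPM (231 to 249.9). At the other end, s3 (229 cells, led by Smim5, Id1 and the iron exporter gene Slc40a1) had 42.1 CPM (35.7 to 49.4). In MGJ2, the 23 low cells of s3 had 18.5 CPM (8.45 to 35.1) of Srxn1. The cells of s3 were thus low in Srxn1 in both libraries although their Col10a1 was low. Their median UMI count in MGJ, 15313, was below that of s0, 19792. Within sub-clusters of MGJ, Srxn1 differed less between the Col10a1 ranges than over all cells. From low over moderate to high, s1 had 117, 87.5 and 87.1 CPM (35, 105 and 420 cells). The same ranges had 240.5, 166 and 126 CPM in s2 and 42.1, 28.9 and 28.0 CPM in s3. Sub-cluster s0 had no moderate or high range of at least 20 cells. The part of sub-cluster make-up in the ratios between ranges was not tested.

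The remaining genes had other peaks. Hmox1 was highest in s8 (52 low cells, led by the acute-phase genes Hp and Saa3), at 558 CPM (514 to 604), against 179 CPM in s0 and 69.2 CPM in s3. The same sub-cluster had the highest Gsr (282 CPM), Slc7a11 (114 CPM), Nfe2l2 (157 CPM) and Txnrd1 (131 CPM) among the 7 sub-clusters. Nqo1 was highest in cycling cells, at 41.8 CPM (35.1 to 49.4) against 15.8 CPM in s0 and 20.6 CPM in s2. Prdx1 lay between 490.5 and 668 CPM in all 7. In s3, Hmox1, Txnrd1, Slc7a11, Gsr and Nfe2l2 had their lowest levels along with Srxn1, while Prdx1 stayed at 565 CPM. Because sub-clusters were made from the expression of the same cells, these differences are descriptions.

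**Figure D5:**
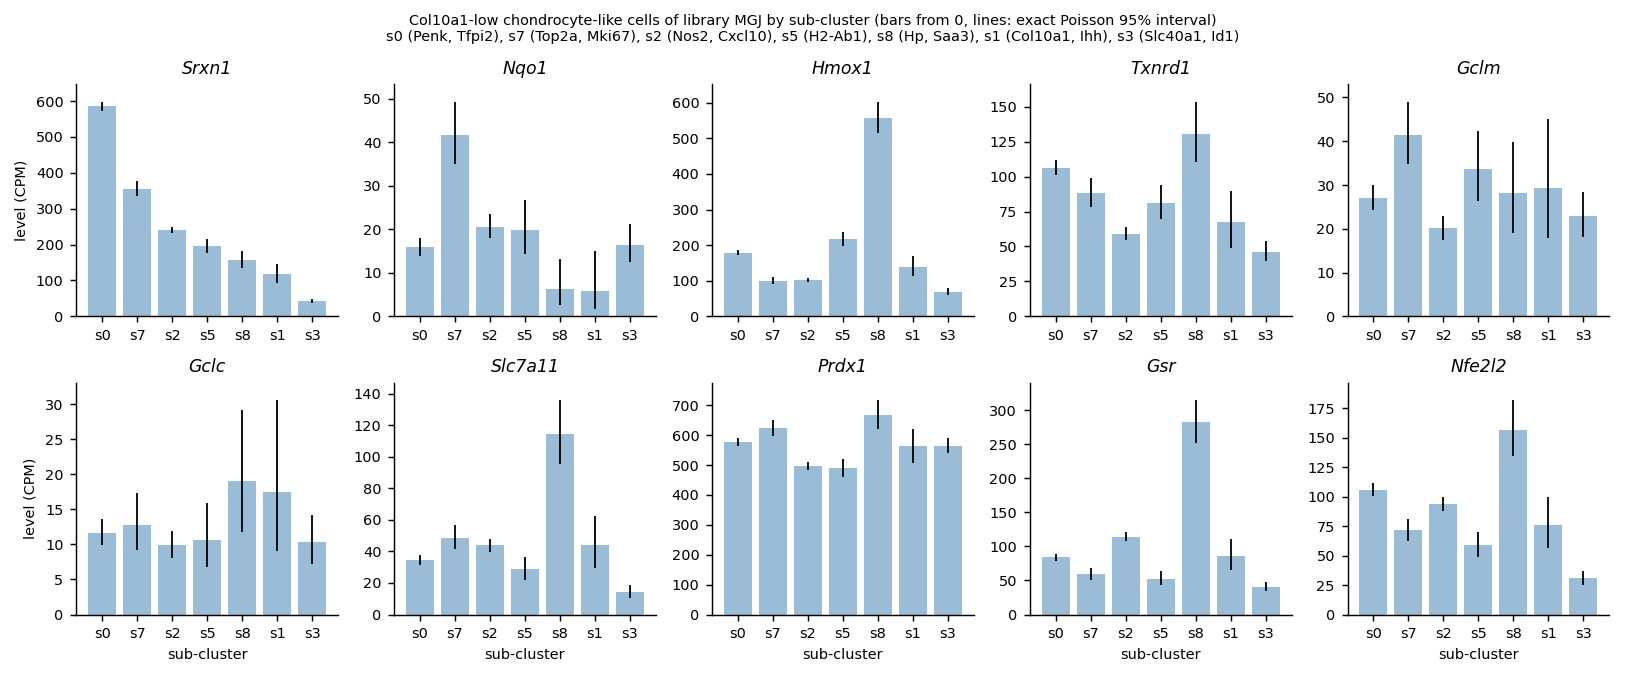
Level (CPM, bars from 0, with exact Poisson 95% intervals as lines) of the 10 genes in the 7 sub-clusters of chondrocyte-like cells with low Col10a1 in MGJ. Srxn1 steps down from 585 CPM in s0 to 42.1 CPM in s3, Hmox1 and Gsr peak in s8 and Nqo1 peaks in the cycling s7.

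Macrophage-like cells were compared with monocyte-like cells in MGJ, since MGJ2 held too few macrophage-like cells. The median gene had a log2 ratio of 0.14, and the members a median of -0.65. Of the 10 genes, 6 were at least 1.5-fold lower in macrophage-like cells, where 7.5% of 9023 genes were, and none was that much higher, where 18.8% were. Slc7a11 had 1090 CPM in macrophage-like against 2455 CPM in monocyte-like cells (ratio 0.444, 0.434 to 0.455), Gsr 187 against 329 CPM (0.567, 0.533 to 0.602) and Hmox1 3205 against 4923 CPM (0.651, 0.641 to 0.661). Gclc, Gclm and Nqo1 were the others below the limit. Nfe2l2 (0.824), Txnrd1 (0.775), Srxn1 (0.75) and Prdx1 (0.706) were lower by less. The 21 macrophage-like cells of MGJ2 had 560 CPM of Hmox1, 1811 CPM of Prdx1 and 549 CPM of Slc7a11. With clusters of other resolutions or a stricter mitochondrial limit, 3 of the 10 were at least 1.5-fold lower in MGJ. At resolution 0.5 Prdx1 (1.14) and Txnrd1 (1.07) were on the other side of 1, with Slc7a11 at 0.726 and Gclc at 0.906. The sets then held 2104 macrophage-like and 159 monocyte-like cells, against 902 and 1279, so the border between the 2 names depended on the resolution.

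The list of 69 other genes of the pathway was described in the same way. Between chondrocyte-like and other cells of MGJ, 39 of the 66 genes counted were at least 1.5-fold lower and 6 higher (median log2 ratio -0.95), against 36.1% and 21.4% of all genes. In MGJ2, 33 of 64 were lower and 16 higher (-0.66), against 43.3% and 26.2%, so the higher genes were near the share of all genes. Of the genes with the largest ratios, Me1, malic enzyme 1 that makes NADPH, was 3.78-fold higher in MGJ (93.3 against 24.7 CPM) and 49.98-fold higher in MGJ2 (87.9 against 1.76 CPM). Gstm5, a glutathione transferase, was 2.83-fold and 19.0-fold higher, though related Gstm genes can share reads. Gpx3, the secreted glutathione peroxidase, led in MGJ2 with 1200 against 20.3 CPM (59.2-fold). The other cells of MGJ2 held no fibroblast-like, tendon-like or pericyte-like class of at least 50 cells. In MGJ, Gpx3 had 2106 CPM in tendon-like, 1329 CPM in fibroblast-like and 1034 CPM in chondrocyte-like cells. Gstm5 had 76.2 CPM in chondrocyte-like and 74.95 CPM in tendon-like cells there. Ugdh, which makes the UDP-glucuronic acid used for cartilage glycosaminoglycans, was 2.43-fold higher in MGJ. The lowest ratios were those of Nfe2 and Mgst1 in both libraries, with Gstm2 in MGJ and Osgin1 in MGJ2. For Nfe2 in MGJ2, 0 UMIs were counted in chondrocyte-like cells, which allows a ratio of up to 0.0196.

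Between high and low Col10a1 cells of MGJ, 18 of the 62 genes counted were at least 1.5-fold higher and 10 lower (median log2 ratio 0.19). In MGJ2, 15 of 43 were higher and 8 lower (0.32). Among the groups of the list, glutathione enzymes had the most genes on the upper side in MGJ. In MGJ2 they shared that place with the regulators (5 of 9 higher, 1 lower). Of the 12 glutathione genes counted in MGJ, 6 were at least 1.5-fold higher and none lower (median log2 ratio 0.65), where 17.0% of all genes were higher and 21.1% lower. Of 6 counted in MGJ2, 5 were higher and none lower (0.94), where 15.6% of all genes were higher and 19.8% lower. The group of haem and iron genes was divided, with 3 higher and 3 lower of 8 in MGJ, and 2 higher and 2 lower of 7 in MGJ2. Transport and detoxification genes were divided as well, with 5 higher and 6 lower of 13 in MGJ, and 1 higher and 2 lower of 6 in MGJ2. The genes with the largest ratios in MGJ were Gstm1 (3.85-fold), the kinase gene Gsk3b (3.12-fold, 429 against 138 CPM) and Cbr3 (2.97-fold). Gstm1 and Cbr3 were scarce, with 5.64 and 3.2 CPM over all chondrocyte-like cells of MGJ. In MGJ2 they were the glutaredoxin gene Glrx (5.37-fold, 116 against 21.6 CPM), the small MAF gene Maff (4.3-fold) and Gsk3b (2.89-fold). On the lower side were the transferrin receptor gene Tfrc (0.346 in MGJ and 0.156 in MGJ2) and the iron exporter gene Slc40a1 (0.251 and 0.213) in both libraries, with Sod3 (0.421) in MGJ and Idh1 (0.206) in MGJ2. Slc40a1 (0.301 and 0.18) and Tfrc (0.467 and 0.275) were also among the lowest between moderate and low cells. With them were Osgin1 (0.436) in MGJ, at 2.15 CPM over all chondrocyte-like cells, and Keap1 and Prdx3 (each 0.621, 0.299 to 1.2) in MGJ2. Txnip (1.94-fold) in MGJ and Glrx (3.23-fold) in MGJ2 were the highest.

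In macrophage-like against monocyte-like cells of MGJ, 13 of 59 genes counted were at least 1.5-fold higher and 14 lower (median log2 ratio 0.07), where 18.8% of all genes were higher and 7.5% lower (median 0.14). The group of haem and iron genes had 3 higher and none lower of 8. Slc40a1 had the largest ratio (5.69-fold, 15.3 against 2.68 CPM), followed by Cbr1 (2.81-fold) and Gstm2 (2.73-fold). Cbr1 and Gstm2 had 4.08 and 1.63 CPM in monocyte-like cells. Prdx5 (0.456), Sod2 (0.461) and Txnip (0.547) had the smallest ratios. Among the regulators, Keap1 in MGJ was highest in pre-B-like cells (48.1 CPM) and lowest in mature neutrophil-like cells (7.93 CPM), with 18.9 CPM in monocyte-like and 17.2 CPM in chondrocyte-like cells. Bach1 was highest in mature neutrophil-like cells of both libraries, at 188 CPM in MGJ and 408 CPM in MGJ2, with 103 and 246 CPM in monocyte-like and 52.9 and 103 CPM in chondrocyte-like cells.

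Genes with profiles most like those of 5 of the members were sought over the 31 classes of both libraries with at least 50 cells, by the correlation of log2(CPM + 10) among 7579 genes of at least 50 CPM in a class. Slc7a11 was most like Cd14 (r = 0.963), Clec4e (0.936) and Clec4d (0.929), all genes of myeloid surface receptors. Srxn1 was most like Ptgs2 (0.835), G530011O06Rik (0.808) and Sqstm1 (0.797), the last of which is in the list of regulators. Hmox1 was most like Esd (0.825), Csf3 (0.814) and Ifitm3 (0.81). Gclm was most like Stom (0.731), Creg1 (0.681) and the haem transporter gene Slc48a1 (0.665). Nqo1, whose counts were few, was most like Ptgs2os (0.723), Plet1 (0.667) and Srxn1 (0.664). Classes of the same library share depth and free RNA, so these are descriptions.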

How the data were processed

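The study digested fracture calluses into single cells, captured them with the 10x Genomics 3′ kit (version 3) aiming at 5000 cells per library, with sequencing on a NovaSeq. What the authors deposited are UMI counts, 1 matrix per library without normalization. The header of each matrix names Cell Ranger 4.0.0, and the submitters' processing notes name GRCm38 and Seurat. MGJ held 14295 barcodes and 135304426 UMIs (median 5026 per barcode) and MGJ2 8009 barcodes and 61130834 UMIs (median 4952). The labels put neither library in a group, so no comparison of days, no mean and SD and no p-value was made, and each library was analysed on its own.

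Barcodes were kept with at least 200 genes and at most 20% mitochondrial UMIs. Doublets were called with Scrublet in scanpy 1.11.5. Its automatic limit called 0 barcodes in MGJ, so the limit found in MGJ2 (score 0.271) was used for both. Cells were clustered together (2000 variable genes without the 10 members, 30 components, 15 neighbours, Leiden resolution 1 with leidenalg 0.10.2, 31 clusters) and named from 25 marker lists by mean log2(CPM + 10) relative to all clusters. A name needed a score of at least 1 and at least 3 markers, and 66.7% of the list, detected in at least 10% of cells. Clusters with a close second list were split, and clusters with a median UMI count under 33.3% of that of their sample or chondrocyte sub-clusters led by markers of other classes were left unnamed. These naming limits were set after the clusters had been seen. The neutrophil-list clusters 0 and 2, left unnamed, stood at 0.32 and 0.326 of the median UMI count. Cluster 19, named mature neutrophil-like, stood at 0.343. The members, the lists and the comparisons were chosen with earlier results of these data known.

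A level is the summed UMIs of a gene over all UMIs of a class (CPM) with an exact Poisson interval. A ratio of 2 levels has the exact conditional binomial interval, and a share of cells has the Clopper-Pearson interval. Genes were counted as higher or lower from 1.5-fold, among genes with at least 50 UMIs in both sets together. Comparisons needed 50 cells a class, or 20 for Col10a1 ranges. The rule for names took the 10 members, the 3 other pathway genes with the largest ratio in each direction and comparison, and the 3 genes most alike in profile for 5 members. Ratio and interval were tested on simulated counts. Gene positions are from GENCODE M21 (GRCm38), matched by identifier for 32158 of 32285 genes, and promoters are from RefSeq (GRCm38.p6). Alternatives changed the filters, the doublet calls, the denominator, the weights of cells, the clustering, the names and the Col10a1 limits. Python 3.11.15, numpy 2.4.6, scipy 1.17.1, pandas 2.3.3 and matplotlib 3.10.9 were used.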

Additional observations from a re-analysis of the deposited data

Results flagged for a closer look

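Signal of the 10 genes was present in barcodes outside the comparisons. The barcodes removed from MGJ for few genes, mitochondrial UMIs or a doublet call (1295 barcodes) held 34107 UMIs of the 10 genes, 3808 CPM (interval 3768 to 3849), where 3 UMIs would be 0.335 CPM, and the kept cells had 3811 CPM. Those removed from MGJ2 (426 barcodes) held 10691 UMIs, 3470 CPM (3405 to 3537), against 3078 CPM in kept cells. Hmox1 alone had 1037 CPM in removed and 946 CPM in kept barcodes of MGJ, and 329.5 and 274 CPM in MGJ2.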

How the results depend on the processing

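Of 750 ratios of single members recomputed under 13 alternatives, 601 moved by less than their counting interval, 145 moved by more and 4 crossed 1 after having been past 1.5-fold. These 4 were all between moderate and low Col10a1 cells of MGJ2: Gclc at 0.567 with each cell weighted equally and 0.898 with limits of 2000 and 20000 CPM, Txnrd1 at 0.781 with limits of 500 and 5000 CPM, and Slc7a11 at 1.03 with limits of 2000 and 20000 CPM. Gclc (17 and 24 UMIs in moderate and low cells) and Slc7a11 (7 and 28) were under the 50 UMIs required of the counts, so of these genes only Txnrd1 had been counted as higher. Ratios within 1.5-fold also crossed 1, among them Gclm (0.757) and Prdx1 (0.998) between high and low cells of MGJ with doublet calls kept. That setting had 52 high and 1442 low cells. Counts of members past 1.5-fold moved as follows. Between high and low cells of MGJ, 3 were lower when the stage came from the sub-cluster. Between moderate and low cells of MGJ2, 1 was higher with at most 10% mitochondrial UMIs or at least 500 genes, and 0 with limits of 500 and 5000 CPM. In chondrocyte-like against other cells of MGJ, 2 were higher with doublet calls kept, with each cell weighted equally and with each cell named by its highest list. In macrophage-like against monocyte-like cells of MGJ, 3 were lower with at most 10% mitochondrial UMIs and at Leiden resolutions 0.5 and 2. With at least 500 genes and at resolution 2, the highest class in MGJ stayed for 6 of 10 members. A plasma-cell-list cluster then led for the other 4 at resolution 2 (Srxn1, Hmox1, Nqo1 and Gclc), and for 3 of the other 4 with at least 500 genes (Srxn1, Nqo1 and Gclm). With mitochondrial and the 20 most abundant genes out of the denominator, it stayed for 8 in MGJ (not Gsr and Nfe2l2) and 9 in MGJ2 (not Gsr). For all of these, the cause was not tested. In MGJ2, no value was obtained with doublet calls kept (chondrocyte comparisons), nor for Col10a1 ranges with cells named singly or with the stage from the sub-cluster. The alternative in which clusters were not split and 3 markers were enough for a name was added after the data had been seen. Depth limits Nqo1, with 237 UMIs in all of MGJ2, and the chondrocyte-like cells of that library. No paired analysis was possible because each library stands alone, with no group and no replicate number.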

Other observations

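Values of the 2 libraries can be read side by side in 12 classes with at least 50 cells in each. The Hmox1 level was the higher in MGJ in 12 of 12 classes, with a median of 570 CPM (43.4 to 4923) in MGJ and 93.9 CPM (7.84 to 684) in MGJ2. Prdx1 was also the higher in MGJ in 12 of 12, with medians of 746 and 404 CPM. Nfe2l2 was the higher in MGJ2 in 8 of 12 classes, with medians of 108 CPM in MGJ and 134 CPM in MGJ2, and Gclc was divided, 6 against 6. Of the other members, Srxn1, Nqo1, Gclm and Slc7a11 were the higher in MGJ in 9 of 12 classes, Txnrd1 in 8 and Gsr in 7. The same count was not made over all genes. Classes of a library share free RNA, so the 12 are not separate observations. Pre-B-like cells, the lowest class for Hmox1 in MGJ2, had 218 CPM of it in MGJ and 7.84 CPM in MGJ2. Their Lyz2 was 313 and 76.6 CPM, and their Col2a1 436.5 and 38.7 CPM. The part of free RNA in these values was not tested, and since each library is a single sample without a day, the day, the pool of mice and the preparation cannot be told apart.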
